A study of Mus musculus with 44 samples.

Results

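The genes described here encode the transferases of phase II conjugation in the mouse, which attach glucuronic acid, glutathione or sulfate to a substrate. They are the 63 protein-coding RefSeq genes with a Ugt1, Ugt2, Ugt3, Gsta, Gstm, Gstp, Gstt, Gsto, Gstz or Sult symbol, taken from 21883 protein-coding genes in all. The UDP-glucuronosyltransferase (UGT), glutathione S-transferase (GST) and sulfotransferase (SULT) families gave 21 genes each.

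The study profiled 4 histone marks in mouse liver cells with antibodies that direct the transposase Tn5 to marked chromatin, where it cuts out the DNA to be sequenced (an assay of the CUT&Tag kind). Of the 5 cell groups, normal hepatocytes (Hep, n = 2 libraries per mark) were isolated on a percoll gradient from mice kept on normal diet. Early (EGFP+ CD24-, n = 2), intermediate (EGFP+ CD24+ EPCAM-, n = 2) and late (EGFP+ CD24+ EPCAM+, n = 3) cells and biliary epithelial cells (BEC, EGFP- EPCAM+, n = 2) were sorted by flow cytometry from mice fed 0.1% DDC, a porphyrin-disturbing compound that causes bile duct injury, over 8 to 9 weeks. All mice carried the Rosa26-LSL-Cas9-EGFP allele, with a genotype labelled wild type, and had been injected with AAV8-TBG-Cre (5e11 genome copies each), for DDC mice 1 week before the diet. TBG is a hepatocyte promoter, so EGFP marks cells that were hepatocytes at injection. The sources used here give neither age nor sex of the animals, and nothing says whether replicates came from separate mice. Every comparison with Hep therefore also compares DDC with normal diet and sorting with a gradient, and these cannot be told apart from stage. Within a library, fewer cells carrying a mark and less of the mark per cell cannot be told apart either.

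UGTs and SULTs act mainly on hydroxyl groups of drugs, hormones, bilirubin and bile acids, and GSTs act on electrophiles and oxidised lipids. The products are more soluble and leave the cell through export pumps into bile or blood. Hepatocytes are the main site of this chemistry in the body, and in humans the cells lining bile ducts are known for their pi-class GST. H3K4me3 is found at active promoters and H3K27ac at these and at active enhancers. H3K4me1 is typical of enhancers, and H3K27me3 is the mark of Polycomb silencing.

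Values are the base pairs (bp) covered by the authors' peaks within 2500 bp on each side of a gene's start, and 0 bp means that no peak was listed there, not that the mark was absent. Starts were annotated ones for 55 of the 63 genes, and gene ends for the other 8. Libraries held 19356 to 33762 peaks for H3K4me3 and 23511 to 51807 for H3K27ac, and read depth is unknown. Median peak length ranged from 89 to 486 bp for H3K4me3 and from 94 to 312 bp for H3K27ac. The shortest medians of both marks belonged to late 1, so low values in late 1 (and for H3K4me3 in intermediate 1, with a median of 129 bp) go with shorter peaks at all promoters. Late 2 and late 3 also had shorter H3K4me3 peaks (medians of 271 and 248 bp) than the Hep, early and BEC libraries (405 to 486 bp). Hepatocyte markers had an H3K4me3 peak at 10 of 10 genes in Hep, 6 to 7 in late and 4 to 5 in BEC libraries, and biliary markers at 3 to 4, 9 to 10 and 10 of 10. Macrophage and neutrophil markers had no H3K4me3 peak in any library, endothelial markers at most 1 of 8, lymphocyte markers at most 1 of 7, and stellate and fibroblast markers 1 of 8 in Hep and early and 2 to 3 of 8 in the other libraries. For H3K27ac, hepatocyte markers had a peak at 10 of 10 genes in Hep, 4 to 7 in early, 7 to 8 in intermediate, 5 to 8 in late and 2 to 3 in BEC libraries. Endothelial markers had H3K27ac at 2 of 8 genes in both Hep libraries (725 and 893 bp summed) and at 0 to 1 elsewhere, and macrophage markers at none of 7 in Hep, 1 in early and intermediate and 0 to 1 in late and BEC libraries. The part of these markers in the results was not tested.

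The promoters of 6 genes that stand for the patterns below show how far they differ in CpG dinucleotides, the sites of DNA methylation in mammals. Each sequence covers 250 bases before and 50 after an annotated start, from RefSeq on GRCm38.p6 (mm10), read 5′ to 3′ on the gene's strand, with every CpG in capitals. Gstp1 (chr19:4037863-4038162, minus strand) and Gstm1 (chr3:108017769-108018068, minus strand) carried H3K4me3 in every library. Ugt2b1 (chr5:86926454-86926753, minus strand), Ugt3a1 (chr15:9279579-9279878, plus strand) and Sult2a8 (chr7:14446538-14446837, minus strand) carried it in both Hep and no BEC library. Sult2b1 (chr7:45759563-45759862, minus strand) carried it in both BEC and no Hep library.
Gstp1: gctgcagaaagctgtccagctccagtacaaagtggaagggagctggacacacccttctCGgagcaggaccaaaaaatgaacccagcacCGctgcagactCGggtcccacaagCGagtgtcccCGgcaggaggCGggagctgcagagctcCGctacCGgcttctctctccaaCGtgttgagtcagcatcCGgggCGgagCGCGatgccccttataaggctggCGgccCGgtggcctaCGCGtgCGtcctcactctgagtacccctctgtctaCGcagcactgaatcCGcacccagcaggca
Gstm1: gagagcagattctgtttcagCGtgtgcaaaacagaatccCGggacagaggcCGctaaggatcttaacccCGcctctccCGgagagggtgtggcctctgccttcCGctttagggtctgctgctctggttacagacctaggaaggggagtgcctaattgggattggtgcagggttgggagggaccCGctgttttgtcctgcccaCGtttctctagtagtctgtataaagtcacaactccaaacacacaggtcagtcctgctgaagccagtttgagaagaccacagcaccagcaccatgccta
Ugt2b1: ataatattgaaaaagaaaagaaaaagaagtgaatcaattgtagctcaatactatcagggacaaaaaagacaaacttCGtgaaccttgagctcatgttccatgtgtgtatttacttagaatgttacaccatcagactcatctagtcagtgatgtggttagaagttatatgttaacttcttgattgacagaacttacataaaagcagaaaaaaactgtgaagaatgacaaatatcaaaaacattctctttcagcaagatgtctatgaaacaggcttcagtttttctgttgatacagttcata
Ugt3a1: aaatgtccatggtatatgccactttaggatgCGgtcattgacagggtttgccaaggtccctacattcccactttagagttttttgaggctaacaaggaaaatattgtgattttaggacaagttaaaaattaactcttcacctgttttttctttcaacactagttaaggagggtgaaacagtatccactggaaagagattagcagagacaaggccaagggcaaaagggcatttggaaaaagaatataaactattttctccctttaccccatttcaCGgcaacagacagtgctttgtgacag
Sult2a8: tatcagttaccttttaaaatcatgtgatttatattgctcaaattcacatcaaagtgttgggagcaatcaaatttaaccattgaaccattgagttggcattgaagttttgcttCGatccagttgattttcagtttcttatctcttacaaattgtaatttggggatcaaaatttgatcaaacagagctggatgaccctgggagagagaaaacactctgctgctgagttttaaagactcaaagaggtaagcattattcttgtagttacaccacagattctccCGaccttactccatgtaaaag
Sult2b1: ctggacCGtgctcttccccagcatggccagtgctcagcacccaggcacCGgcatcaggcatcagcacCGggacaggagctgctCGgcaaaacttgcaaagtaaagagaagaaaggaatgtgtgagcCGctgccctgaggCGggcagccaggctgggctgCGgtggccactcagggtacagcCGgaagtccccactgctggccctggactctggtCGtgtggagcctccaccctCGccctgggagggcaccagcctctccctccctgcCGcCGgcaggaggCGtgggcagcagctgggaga
These promoters hold 20 CpG in Gstp1, 8 in Gstm1, 1 in Ugt2b1, 2 in Ugt3a1, 2 in Sult2a8 and 13 in Sult2b1.

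Counts of promoters with a peak at each stage are given by family as a description, with no test between families. UGT genes with an H3K4me3 peak averaged 11 ± 0 in Hep, 8.5 ± 0.71 in early, 6.5 ± 2.12 in intermediate, 1.67 ± 1.53 in late and 0.50 ± 0.71 in BEC libraries, of 21 genes (SD over 2, 2, 2, 3 and 2 libraries). GST genes averaged 15 ± 0, 17.5 ± 0.71, 16.5 ± 2.12, 14 ± 1.73 and 14 ± 0, and SULT genes 5.5 ± 0.71, 3.5 ± 0.71, 4 ± 0, 4.33 ± 0.58 and 3 ± 1.41, in the same order. The UGT counts of the late and BEC libraries (0 to 3) lay below those of the Hep, early and intermediate libraries (5 to 11), whereas GST counts were 12 to 15 in late and 14 in both BEC libraries, against 15 in both Hep libraries. Of the 14 GST genes with H3K4me3 in both Hep libraries, 10 had it in every late library, against none of the 11 such UGT genes. Among all protein-coding genes, 10216 of the 10856 with H3K4me3 in both Hep libraries had it in every late library. The share of all protein-coding promoters with an H3K4me3 peak ran the other way from the UGT counts, from 49.9% in Hep 1 to 58.6% in intermediate 2. It was 55.0 to 58.0% in late and 56.0 to 56.5% in BEC libraries.

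For H3K27ac the UGT counts were again lowest in late (1 each) and BEC (1 and 2) libraries. UGT genes with a peak averaged 13 ± 1.4 in Hep, 6 ± 1.41 in early, 6 ± 1.41 in intermediate, 1 ± 0 in late and 1.5 ± 0.71 in BEC libraries. GST genes averaged 17 ± 0, 14.5 ± 0.71, 17.5 ± 0.71, 16 ± 2.0 and 15 ± 1.4, and SULT genes 7 ± 1.41, 5 ± 0, 4.5 ± 0.71, 4.33 ± 0.58 and 4.5 ± 0.71. Of all promoters, 48.0 to 49.5% had an H3K27ac peak in Hep libraries, and 33.9 and 38.7% in early libraries, the lowest of the 11.

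**Figure D1:**
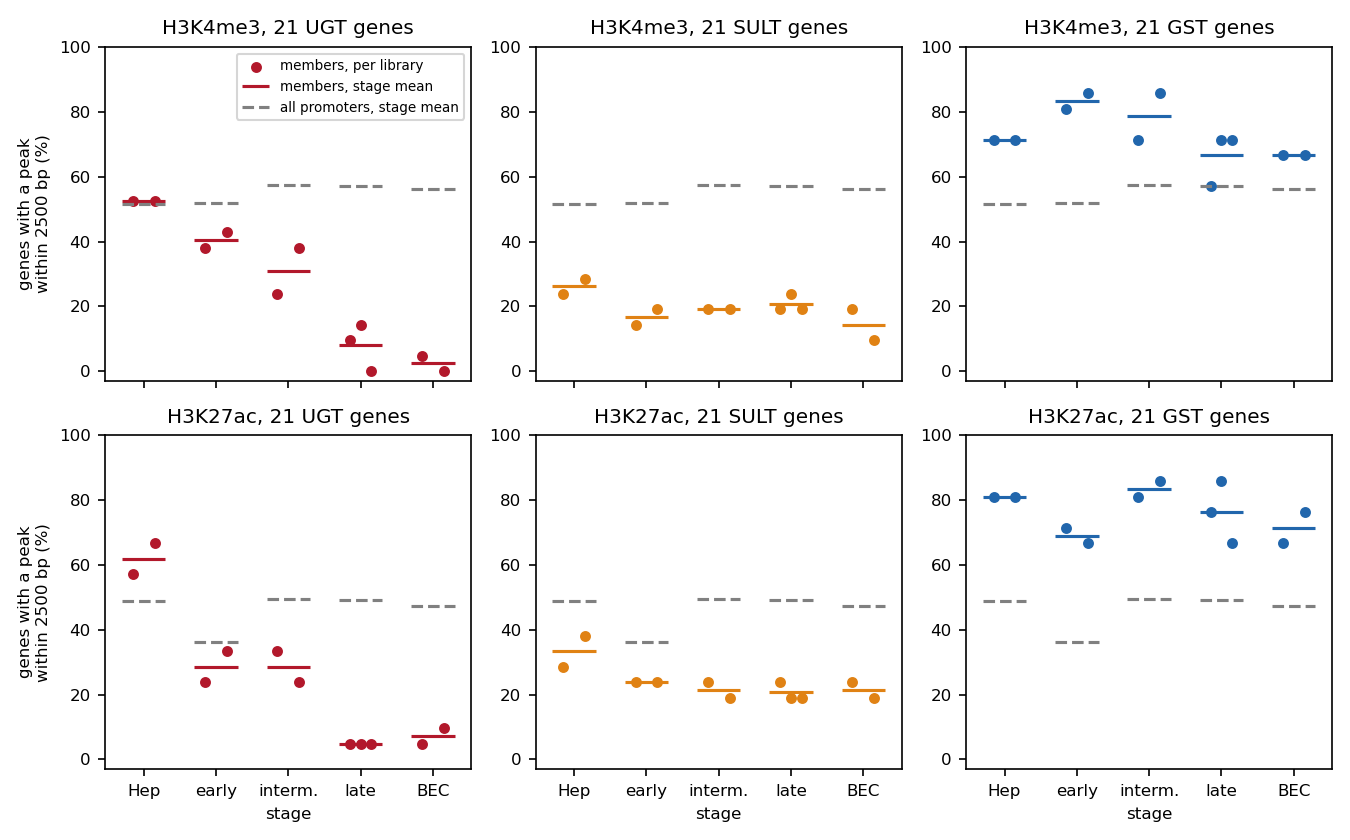
Share of the 21 genes of each family with a peak within 2500 bp of the start (y axis, %) at each stage (x axis), for H3K4me3 (top) and H3K27ac (bottom). Points are libraries, solid bars their stage means and dashed grey bars the stage means of all protein-coding promoters. UGT points fall to at most 3 of 21 genes in late and BEC libraries, while GST points stay at or above 12 of 21 for both marks.

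For H3K4me3, 37 of the 63 genes had a peak in 2 or more libraries and entered the fit. The test was limma on log2(bp + 100) with Benjamini-Hochberg adjustment over all 13473 promoters, called at an adjusted p under 0.05. A further 25 genes had no H3K4me3 peak in any library, and Sult5a1 had one in Hep 2 alone (496 bp).

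The late versus Hep comparison asks how the promoters of labelled cells that have reached the CD24+ EPCAM+ state differ from those of normal hepatocytes. H3K4me3 at 14 of the 37 genes tested was lower in late cells and at none higher, against 3.07% of all tested promoters lower and 3.33% higher. Of the 14, Ugt1a5, Ugt3a1 and Sult2a8 had a peak in the 2 Hep libraries alone, so they entered the fit only through the group where they are high and had to differ, which leaves 11 other calls. Lower were 10 of 12 UGT, 3 of 7 SULT and 1 of 18 GST genes, where the UGT count includes Ugt1a5 and Ugt3a1 and the SULT count includes Sult2a8. The median log2 difference was -2.75 for UGT, -2.20 for SULT and -0.81 for GST genes, against -0.66 for all promoters tested, so the GST median lay close to that of all promoters. Since 8 of the 12 UGT genes had no peak in late cells, the UGT median depends on the added 100 bp. Over all 37 genes the median moved from -1.23 to -2.02 with 10 bp added instead, against -0.66 and -0.79 for all promoters.

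In the Ugt1 cluster, where alternative first exons with their own promoters join a shared set of later exons, 3 genes fell in late cells. Ugt1a9, which conjugates phenolic compounds, had 0, 0 and 0 bp of H3K4me3 in late cells, against 770 and 832 bp in Hep (adjusted p = 0.00155, limma). Ugt1a5 likewise had no peak in late cells, against 473 and 548 bp in Hep (adjusted p = 0.00138, limma), but it entered the fit only through Hep, so the filter fixed its call. Ugt1a6b, an enzyme for small planar phenols, had 0, 123 and 0 bp in late cells, against 733 and 1048 bp in Hep, with no overlap between the groups (log2 difference -2.90 ± 0.51, SE, adjusted p = 0.00291).

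The other Ugt1 promoters were not called. Ugt1a7c had 0, 197 and 0 bp in late cells, against 0 and 0 bp in Hep (adjusted p = 0.416). The 2 intermediate libraries had 184 and 163 bp there. Ugt1a10, Ugt1a8, Ugt1a6a, Ugt1a2 and Ugt1a1, the last the enzyme that conjugates bilirubin, had no H3K4me3 peak in any of the 11 libraries.

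The Ugt2 cluster encodes enzymes for steroids, bile acids and many drugs, and 5 of its 6 tested genes fell in late cells. Ugt2b1 had 0, 0 and 0 bp in late cells, against 912 and 443 bp in Hep (adjusted p = 0.000997). Ugt2b36, at 838 and 484 bp in Hep, and Ugt2b5, at 537 and 204 bp, also had no peak in any late library (adjusted p = 0.00470 and 0.0219). Ugt2a3 was at 0, 0 and 0 bp in late cells, against 846 and 785 bp in Hep, the joint lowest adjusted p of the UGT genes (0.000477).

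Ugt2b34 kept a little H3K4me3, with 53, 204 and 0 bp in late cells, against 895 and 857 bp in Hep (log2 difference -2.55 ± 0.66, SE, adjusted p = 0.0299). It was also the only UGT gene with an H3K4me3 peak in a BEC library, 398 bp in BEC 1 and 0 bp in BEC 2. Ugt2b35 had 54, 0 and 0 bp in late cells, against 239 and 316 bp in Hep, and was not called. The Ugt3 genes, whose human forms use sugar donors other than UDP-glucuronic acid, both fell to 0 bp in every late library. Hep libraries had 452 and 566 bp at Ugt3a1 (adjusted p = 0.00145, limma) and 819 and 1041 bp at Ugt3a2 (adjusted p = 0.000477). Ugt3a1 entered the fit only through Hep, so the filter fixed its call.

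Among SULT genes, Sult2a8, a bile acid sulfotransferase of mouse liver, had 0, 0 and 0 bp in late cells, against 829 and 742 bp in Hep (adjusted p = 0.000374, limma). Sult2a8 entered the fit only through Hep, so the filter fixed its call. Sult1c2 also had no peak in late cells, against 331 and 519 bp in Hep (adjusted p = 0.0324). Sult1d1, which acts on catecholamines in the mouse, had 0, 262 and 0 bp in late cells, against 736 and 654 bp in Hep (log2 difference -2.37 ± 0.58, SE, adjusted p = 0.0216). Late and Hep libraries did not overlap at any of these 3 genes.

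Sult1a1, the phenol sulfotransferase, had 53, 303 and 163 bp in late cells, against 1035 and 1094 bp in Hep, and Sult1b1, which acts on thyroid hormone, 58, 341 and 152 bp against 435 and 539 bp. Their groups did not overlap, but neither was called (log2 differences -2.20 ± 0.69 and -1.17 ± 0.61, SE). Overlap is a weak guide here, since all late libraries lay below both Hep libraries at 26 of the 37 genes and at 47.4% of all tested promoters.

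Gsta2, an alpha-class GST, was the GST gene called lower, with 74, 0 and 0 bp in late cells, against 174 and 457 bp in Hep (log2 difference -1.70 ± 0.47, SE, adjusted p = 0.0423). Its call was lost in several other settings, among them quantile normalization, peaks resized to 500 bp and equal numbers of peaks per library. Gstp1, the pi-class GST, had 217, 1483 and 786 bp in late cells, against 1741 and 1761 bp in Hep, a difference that was not called (-1.28 ± 0.60, SE). The lowest of these, late 1, is the library with the shortest peaks. Gstm1, the main mu-class GST, had 202, 974 and 844 bp in late cells, against 1256 and 1175 bp in Hep (-0.96 ± 0.55, SE, not called).

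The count of 14 rests on the Hep libraries: it fell without either of them, as did the calls of all promoters, with 1 Hep library left. The median log2 difference of the genes tested was -1.29 without Hep 1 and -1.04 without Hep 2. Of the 14 genes, 3 (Ugt1a5, Ugt3a1 and Sult2a8) then had a peak in too few libraries to be tested. Without late 3 the count was 9, and 269 of all promoters were lower, against 414 with all libraries. Without the short-peak libraries late 1 and intermediate 1 the count was 13 (12 lower and 1 higher).

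**Figure D2:**
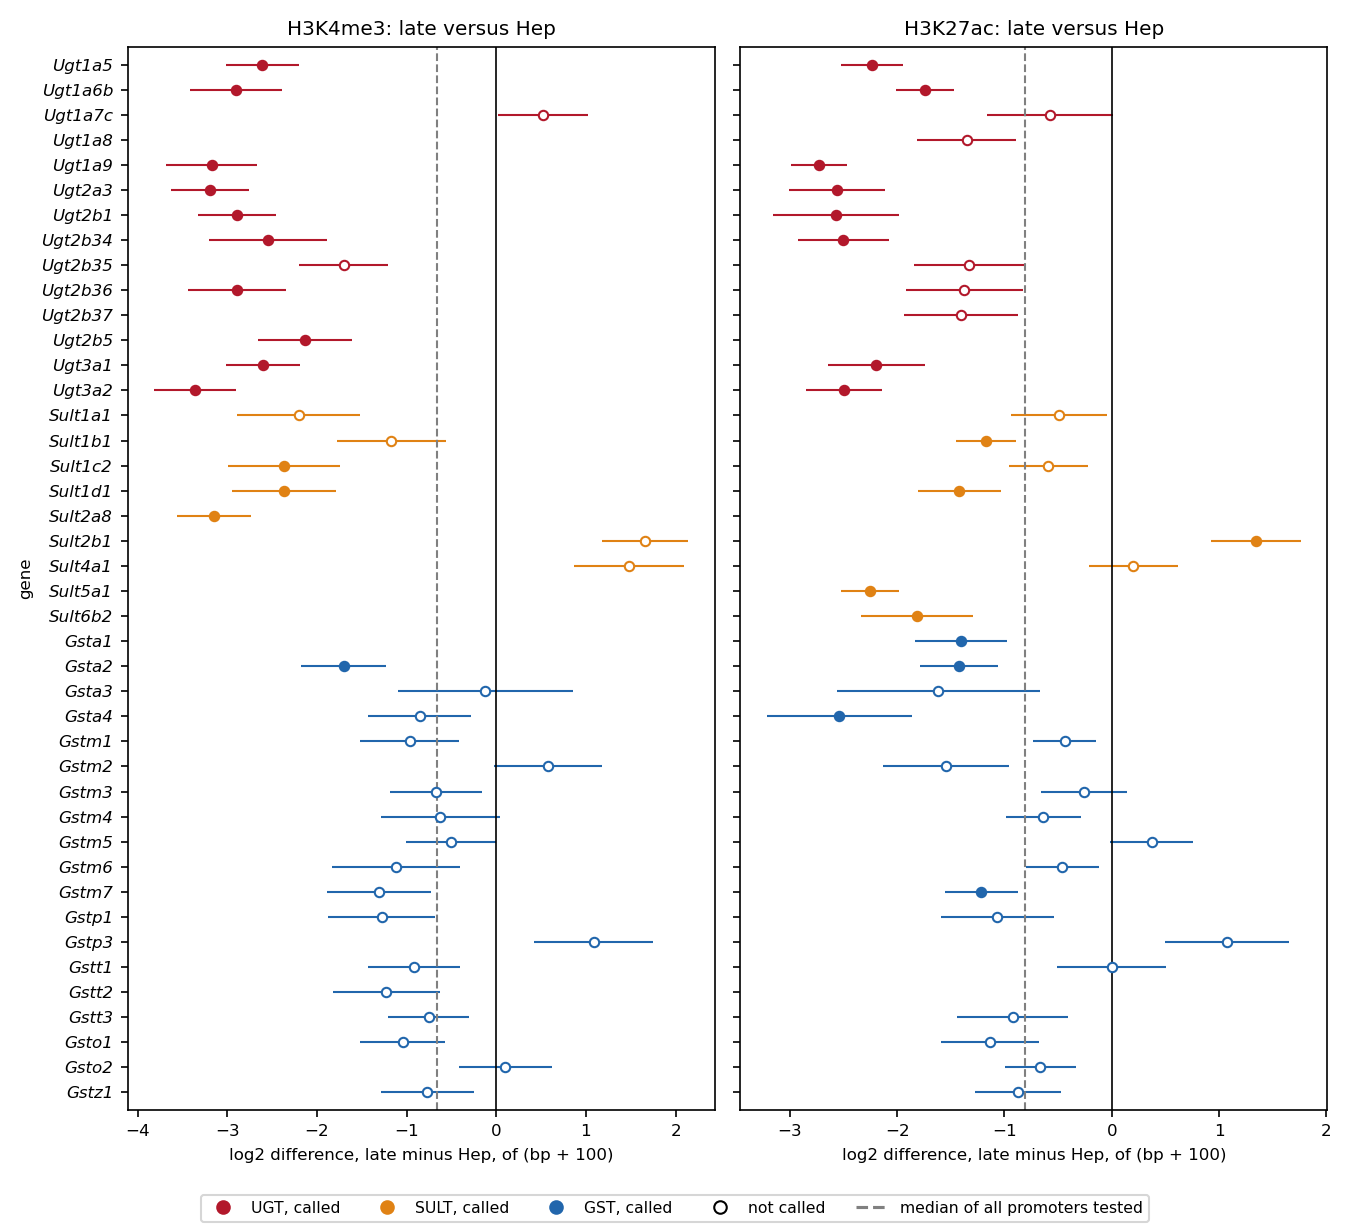
Log2 difference of (bp + 100), late minus Hep (x axis), for each phase II gene with a peak in 2 or more libraries (y axis), H3K4me3 left and H3K27ac right. Filled points passed an adjusted p under 0.05, bars are the SE of the fit and the dashed line is the median of all promoters tested. Where a gene had no peak in any library of a group, its difference depends on the added 100 bp. Filled red UGT points lie left of the dashed line in both panels, and most GST points of the H3K4me3 panel are open and near it.

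Early cells, which are labelled, CD24-negative and exposed to DDC, were set against Hep to ask which promoters differed before the surface markers appear. For H3K4me3, 3 of 37 genes were lower in early cells and none higher, against 0.312% of all tested promoters lower and 0.349% higher. Ugt1a5, Ugt3a1 and Sult2a8 each had 0 and 0 bp in early cells, against the 2 Hep values given above (adjusted p = 0.0110, 0.0114 and 0.00615, limma), and these are the 3 genes that entered the fit only through the Hep libraries, so no call remains that the filter did not fix. Ugt1a9 had 0 and 188 bp in early cells, against 770 and 832 bp in Hep, and was not called (adjusted p = 0.0629). Without any single one of the 4 libraries compared, 1 library is left in a group, and the calls were lost at these genes as at all promoters. Without a Hep library these 3 genes could not be tested.

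The remaining UGT genes of Hep kept the mark in early cells. Ugt3a2 had 438 and 495 bp in early cells, against 819 and 1041 bp in Hep, and Ugt2a3 had 481 and 882 bp against 846 and 785 bp, neither called. Several mu-class GST values were higher in early cells without passing the test: Gstm3 had 328 and 933 bp, against 0 and 154 bp in Hep, and Gstm2 had 203 and 401 bp, against 0 and 0 bp. Gstp3 had 211 and 248 bp in early cells and no peak in Hep. The median log2 difference of the 18 GST genes was 0.08, against -0.32 for 12 UGT genes and -0.06 for all promoters tested.

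Late versus early compares labelled cells that share the diet and the sorting. H3K4me3 at 9 of 37 genes was lower in late cells and at none higher, against 1.48% of all tested promoters lower and 1.45% higher. The median log2 difference was -1.09 for the 37 genes and -0.54 for all promoters tested, so these calls stand beside a general shift. The 9 were 7 UGT genes (Ugt1a6b, Ugt3a2, Ugt2b1, Ugt2b35, Ugt2b36, Ugt2b5 and Ugt2a3) and the GST genes Gstm3 and Gsta2. Ugt2b1 had 0, 0 and 0 bp in late cells, against 460 and 490 bp in early cells (adjusted p = 0.00633, limma). Ugt2a3, at 481 and 882 bp in early cells, had none in late cells (adjusted p = 0.00283). Both Ugt3a2 (adjusted p = 0.00790) and Ugt2b36 (219 and 848 bp in early cells, adjusted p = 0.0208) were also at 0 bp in all late libraries.

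Gstm3, a mu-class GST, had 0, 0 and 0 bp in late cells, against 328 and 933 bp in early cells (adjusted p = 0.00895), so its H3K4me3 was listed in Hep 2, early and intermediate libraries only. Gsta2 had 74, 0 and 0 bp in late cells, against 463 and 615 bp in early cells (adjusted p = 0.0116). No SULT gene was called, and Sult1a1 had 53, 303 and 163 bp in late cells, against 855 and 1376 bp in early cells. Calls became fewer without early 1 or early 2, at these genes and at all promoters, with 1 early library left. Without late 3 the count was 4, and 88 of all promoters were lower, against 200 with all libraries.

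Intermediate cells, which were not tested, had values between those of early and late cells at many UGT genes. Ugt2b34 had 207 and 737 bp in intermediate cells, Ugt2a3 had 66 and 122 bp, and Ugt3a2 had 0 and 127 bp. The lower value of each pair is that of intermediate 1, the library with short peaks. Sult2b1 had 161 and 188 bp in intermediate cells and none in early cells or Hep.

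BEC, the cells that line bile ducts, were set against late cells to ask how far the labelled cells resemble the resident biliary cells. For H3K4me3 none of 37 genes was called in either direction, against 0.653% of all tested promoters higher and 0.0668% lower in BEC. An unadjusted p under 0.05 was found at 2357 of all 13473 promoters and, a smaller share, at 3 of the 37 genes, all with higher values in BEC. These were Gstm5 with 1103 and 1076 bp in BEC, against 139, 419 and 429 bp in late cells, Gstt3 with 1248 and 1227 bp against 341, 742 and 514 bp, and Sult2b1 with 546 and 650 bp against 76, 255 and 404 bp. Their adjusted p were 0.236, 0.262 and 0.262 (limma). BEC and late libraries did not overlap at these 3 genes. The median of all promoters tested was 0.80 log2 units higher in BEC, so these differences stand beside a general one, and 58.9% of all promoters had both BEC libraries above every late library.

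BEC versus Hep sets the resident biliary cells against normal hepatocytes, with the same Hep libraries as the other comparisons with Hep. H3K4me3 at 13 of 37 genes was lower in BEC and at 1 higher, against 3.12% of all tested promoters lower and 9.10% higher. The same 3 genes with peaks in Hep alone are among the 13, which leaves 10 other lower calls. Lower were 10 of 12 UGT genes (Ugt1a5 and Ugt3a1 among them), Sult1d1, Sult2a8 and Gsta2, and each of these 13 had 0 bp in both BEC libraries. They are also the 13 genes whose H3K4me3 was listed in both Hep libraries but not in BEC, a pattern that 20.6% of the 63 genes and 1.70% of all protein-coding genes showed. Their adjusted p ranged from 0.000392 (Sult2a8) to 0.0270 (Ugt2b35). The UGT gene that differed from these, Ugt2b34, had 398 and 0 bp in BEC, against 895 and 857 bp in Hep, and was not called. Calls became fewer without either Hep library, at these genes and at all promoters, with 1 Hep library left.

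Sult2b1, which sulfates cholesterol and pregnenolone, was the gene that rose. It had 546 and 650 bp of H3K4me3 in BEC, against 0 and 0 bp in Hep (adjusted p = 0.00185, limma), and it was the only one of the 63 genes listed in both BEC libraries and not in Hep. Across the stages it had no peak in Hep and early cells, 161 and 188 bp in intermediate, 76, 255 and 404 bp in late and 546 and 650 bp in BEC libraries. The late versus Hep difference of Sult2b1 did not pass the test. Sult4a1, a brain-enriched SULT, had peaks in intermediate 2 (291 bp), all 3 late libraries (105, 177 and 283 bp) and BEC 2 (246 bp) and none in Hep or early cells, and was called in no comparison.

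The 9 genes with H3K4me3 in all 11 libraries (14.3% of the 63, against 45.2% of all protein-coding genes) were all GSTs. They were Gstt1 and Gstt3 (theta class), Gstz1, the maleylacetoacetate isomerase of tyrosine breakdown, Gstp1, Gsto1 and Gsto2 (omega class, which reduce dehydroascorbate), Gstm1, Gstm5 and Gsta4, which clears the lipid peroxidation product 4-hydroxynonenal. Gstz1 shares its window with Pomt2, and those of Gstp1 and Gstp2 overlap. Gstp1 had 1741 and 1761 bp in Hep, 1627 and 1553 bp in early, 556 and 1492 bp in intermediate, 217, 1483 and 786 bp in late and 1309 and 1676 bp in BEC libraries. Gsto2 had 287 and 326 bp in Hep, 377 and 186 bp in early, 209 and 523 bp in intermediate, 154, 583 and 376 bp in late and 679 and 790 bp in BEC libraries. The order of the stages thus differed between these genes, with Hep highest at Gstp1 and BEC highest at Gsto2, and neither was called for H3K4me3 in any comparison.

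**Figure D3:**
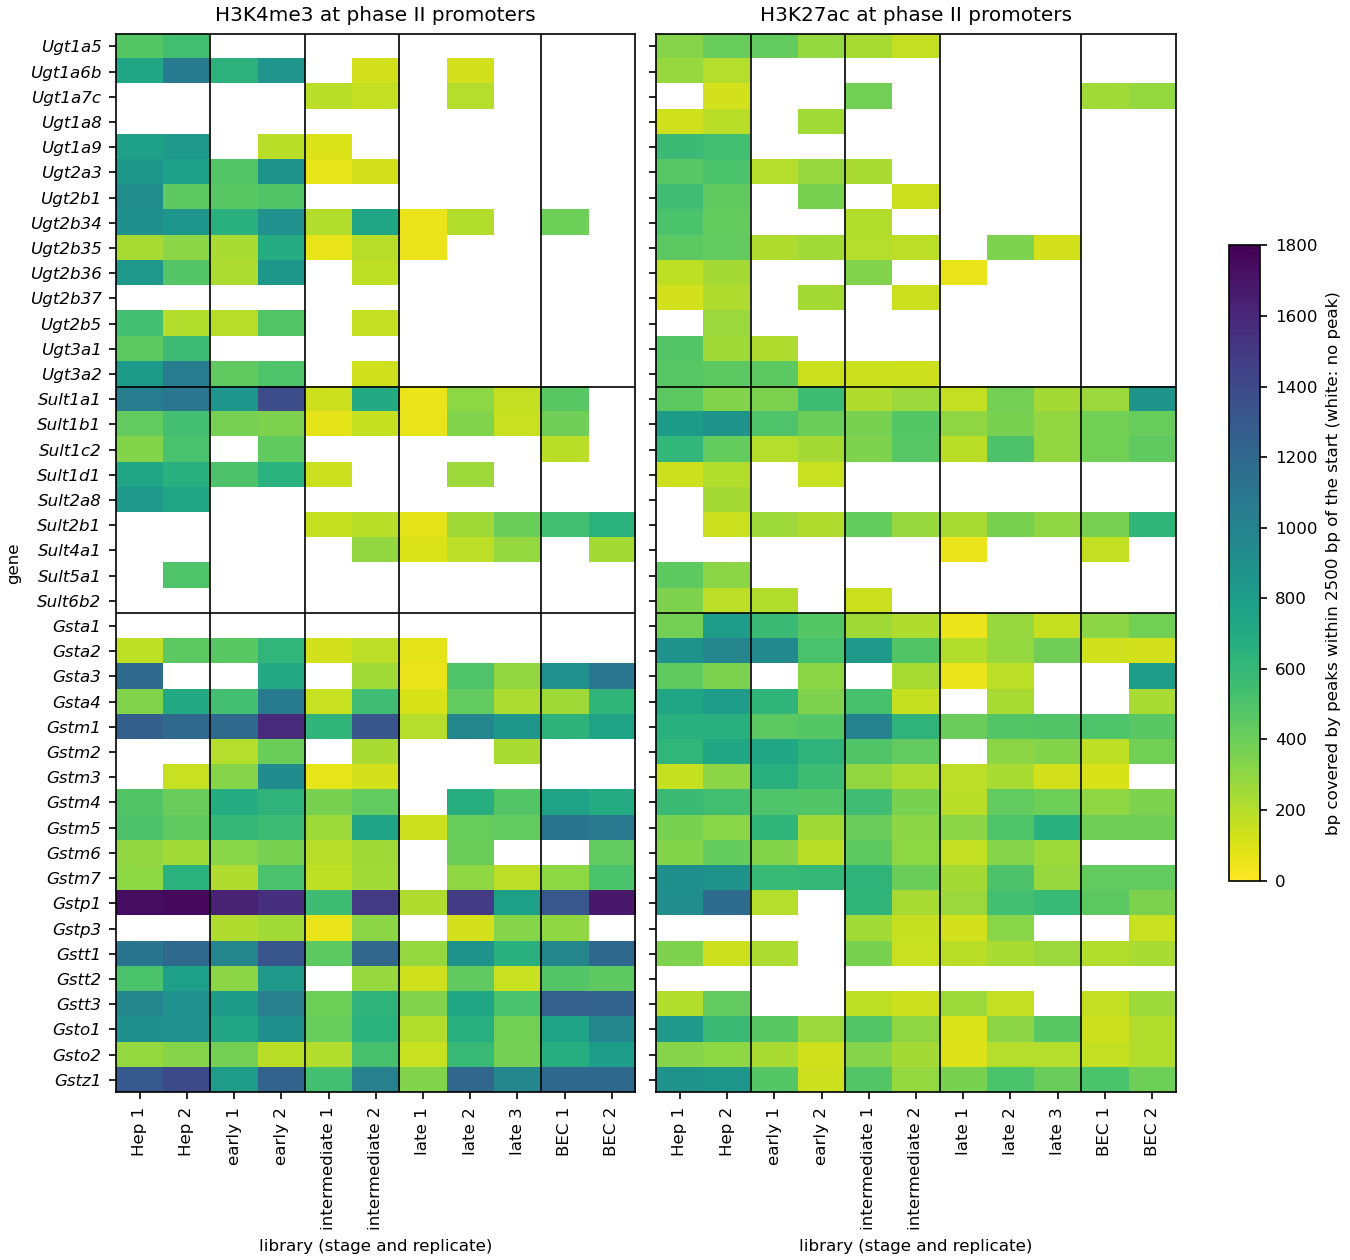
Base pairs covered by peaks within 2500 bp of the start (colour, white where no peak was listed) for each phase II gene with a peak of H3K4me3 or H3K27ac in 2 or more libraries (rows, UGT above SULT above GST), in the 11 libraries of H3K4me3 (left) and of H3K27ac (right). White fills most of the UGT block in late and BEC columns of both marks, while 9 GST genes are coloured in all 11 libraries of H3K4me3 and 9 in all 11 of H3K27ac, 5 of them in both.

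For H3K27ac, 39 of the 63 genes had a peak in 2 or more libraries and were tested in a fit of 12567 promoters. In late versus Hep, 16 of them were lower in late cells and 1 higher, against 19.2% of all tested promoters lower and 4.47% higher. Quantile normalization, which sets the median difference of all promoters (-0.81) to 0.01, gave 9 lower and 2 higher, against 534 lower and 725 higher of all 12567 promoters. The calls were lost without either Hep library, as were nearly all calls of all promoters, with 1 Hep library left. Without late 1 or late 3 there were 10, and 977 and 1126 of all promoters were lower, against 2417 with all libraries. Lower were 8 of 13 UGT, 4 of 8 SULT and 4 of 18 GST genes. Of the 16, Ugt1a9, Ugt1a6b, Ugt3a1, Ugt2b34, Sult1d1 and Sult5a1 had fewer than 2 libraries with a peak outside Hep, so they too entered the fit only through the group where they are high, which leaves 10 other lower calls. These 10 are the UGT genes Ugt1a5, Ugt3a2, Ugt2b1 and Ugt2a3, the SULT genes Sult1b1 and Sult6b2, and the 4 GST genes.

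The 8 UGT genes were Ugt1a9, Ugt1a6b, Ugt1a5, Ugt3a1, Ugt3a2, Ugt2b34, Ugt2b1 and Ugt2a3, each with 0 bp of H3K27ac in all 3 late libraries. Ugt1a9 had 575 and 548 bp in Hep (adjusted p = 0.00104, limma), and no peak in any of the other 9 libraries, so the filter fixed its call. Ugt1a5 differed from it by stage: it had 429 and 285 bp in early cells and 233 and 166 bp in intermediate cells, against 324 and 421 bp in Hep, and none in late cells (late versus Hep, adjusted p = 0.00265). Its H3K4me3, by contrast, was already at 0 bp in early cells.

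The SULT genes with lower H3K27ac in late cells were Sult1b1, Sult1d1, Sult5a1 and Sult6b2. Sult1b1 had 301, 365 and 292 bp in late cells, against 816 and 870 bp in Hep (log2 difference -1.17 ± 0.28, SE, adjusted p = 0.0198), and kept a peak in all 11 libraries. Sult5a1 had none in late cells, against 448 and 315 bp in Hep (adjusted p = 0.00205, limma), but it had a peak in Hep only, so the filter fixed its call. Sult2b1 rose in late cells, with 236, 362 and 302 bp, against 0 and 145 bp in Hep (log2 difference 1.34 ± 0.42, SE, adjusted p = 0.0452), a call lost without any single Hep, late or BEC library.

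Alpha-class GST genes made up 3 of the 4 GST genes with lower H3K27ac in late cells. Gsta2 had 205, 282 and 392 bp in late cells, against 885 and 984 bp in Hep (log2 difference -1.42 ± 0.36, SE, adjusted p = 0.0255). Gsta4 had 0, 238 and 0 bp against 737 and 807 bp (adjusted p = 0.0295), although its H3K4me3 was listed in every library. Gsta1 had 51, 279 and 161 bp against 378 and 795 bp (adjusted p = 0.0419), and the mu-class gene Gstm7 had 240, 501 and 275 bp against 895 and 876 bp (adjusted p = 0.0327). All 4 calls were lost under quantile normalization and without either Hep library.

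Early cells had 7 of 39 genes with lower H3K27ac than Hep and none higher, against 24.5% of all tested promoters lower and 0.843% higher. The share of phase II genes (17.9%) was thus below that of all promoters, whose median difference was -0.92. Under quantile normalization none was lower and 1 higher, against 22 lower and 117 higher of all 12567 promoters. The 7 were Ugt1a9, Ugt1a6b, Ugt2b34, Sult5a1, Gstt3, Gstz1 and Gstp1, of which the first 4 entered the fit only through Hep. Gstp1 had 198 and 0 bp in early cells, against 918 and 1168 bp in Hep (adjusted p = 0.0119, limma), while its H3K4me3 was 1627 and 1553 bp against 1741 and 1761 bp. The 7 calls were lost without either Hep library, as were most calls of all promoters.

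In late versus early cells, H3K27ac was lower at 3 of 39 genes and higher at none, against 1.12% of all tested promoters lower and 5.21% higher. Under quantile normalization 5 genes were lower and none higher, against 324 lower and 263 higher of all 12567 promoters. Ugt1a5 had no peak in late cells, against 429 and 285 bp in early cells (adjusted p = 0.00843, limma). Ugt3a2 had none against 451 and 146 bp (adjusted p = 0.0160), and Ugt2a3 none against 201 and 277 bp (adjusted p = 0.0480). The 3 calls were lost without early 1, as were the calls of all promoters.

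BEC and late cells had no called difference in H3K27ac among the 39 genes, against 0.541% of all tested promoters higher and 0.143% lower in BEC. An unadjusted p under 0.05 was found at 3 of the 39 genes and at 927 of all 12567 promoters, a similar share. Of the 3 genes, Gstm6 had 0 and 0 bp in BEC, against 166, 328 and 263 bp in late cells (adjusted p = 0.0547, limma), and it was called without late 1. Ugt1a7c had 247 and 285 bp in BEC and none in late cells (adjusted p = 0.307). Gstm3 had 112 and 0 bp in BEC, against 181, 228 and 120 bp in late cells (adjusted p = 0.664).

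In BEC versus Hep, H3K27ac at 14 of 39 genes was lower and at 1 higher in BEC, against 14.6% of all tested promoters lower and 6.23% higher. Under quantile normalization 11 genes were lower and 2 higher, against 818 lower and 1009 higher of all 12567 promoters. The 14 were 9 UGT genes, Sult1d1, Sult5a1, Sult6b2, Gstm6 and Gsta2, and 6 of them (those named in late versus Hep) entered the fit only through Hep. Sult2b1, again the gene that rose, had 368 and 625 bp in BEC, against 0 and 145 bp in Hep (log2 difference 1.90 ± 0.46, SE, adjusted p = 0.0187). Gsta2 had 128 and 126 bp in BEC, against 885 and 984 bp in Hep (-2.19 ± 0.40, SE, adjusted p = 0.00581). Without either Hep library calls became fewer, at these genes and at all promoters.

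Both marks were present in both Hep libraries and absent from both BEC libraries at 10 genes, against 1.12% of all protein-coding genes. These were 9 UGT genes (Ugt1a9, Ugt1a6b, Ugt1a5, Ugt3a1, Ugt3a2, Ugt2b1, Ugt2b35, Ugt2b36 and Ugt2a3) and Sult1d1. The 2 marks were not always listed together. Gsta1 had H3K27ac in all 11 libraries (51 to 795 bp) and H3K4me3 in none, a combination found at 4 promoters in all. Gsta1 and Gsta2 are close copies, so which of them a peak belongs to is uncertain. Sult2a8 had H3K4me3 of 829 and 742 bp in Hep but H3K27ac of 0 and 241 bp. Sult1c2 had H3K27ac in all 11 libraries, with 183, 506 and 289 bp in late cells, against 609 and 427 bp in Hep, although none of the late libraries had H3K4me3 there.

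Many paralogs had no peak in any library. Neither H3K4me3 nor H3K27ac was listed at 20 of the 63 genes (31.7%, against 32.9% of all protein-coding genes), namely 12 SULT, 6 UGT and 2 GST genes. All 7 Sult2a genes other than Sult2a8, hydroxysteroid sulfotransferases that lie in 1 cluster on chromosome 7, were among them, as was Sult1e1, the estrogen sulfotransferase. No peak of any of the 4 marks was listed at 8 genes (12.7%, against 23.5% of all protein-coding genes): Ugt1a1, Ugt2a1, Ugt2a2, Gstt4, Gstp2, Sult2a2, Sult2a5 and Sult2a6. How reads matching several of the near-identical Ugt2b, Gsta, Gstm, Gstp and Sult2a copies were treated is not stated in the sources used here, so values of these copies are uncertain.

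H3K4me1 was read only as a description, since its lists differ widely: early 1 had a peak at 6.75% of all promoters, against 58.2% for Hep 2. Of the 63 genes, 31 and 40 had a peak in Hep, 5 and 26 in early, 14 and 9 in intermediate, 22, 25 and 16 in late and 19 and 11 in BEC libraries. Sult1b1 was the only member with H3K4me1 in all 11 libraries (168 to 933 bp), as were 0.507% of all protein-coding genes. Sult2b1 had H3K4me1 of 0 and 145 bp in Hep, 260 and 219 bp in early, 273 and 0 bp in intermediate, 198, 195 and 153 bp in late and 212 and 172 bp in BEC libraries, so a peak of this mark was listed in both early libraries, which had no H3K4me3 there. H3K4me1 was listed in both Hep and all late libraries at 7 of the 63 genes (11.1%, against 6.94% of all protein-coding genes), of which Ugt2b36 was the UGT gene. It had 120, 189 and 128 bp in late cells, where no H3K4me3 was listed, against 309 and 507 bp in Hep.

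H3K27me3 was rare at these genes. It was listed at 52 of the 63 in no library, and in each library at 0 to 7 of them (0 to 11.1%), against 2.15 to 16.3% of all promoters. A peak in 3 or more libraries was found at 3 genes. Sult4a1 had 0 and 163 bp in Hep, 201 and 182 bp in early, none in intermediate, 0, 351 and 175 bp in late and none in BEC libraries. Sult2a1 had 217 and 379 bp in early cells and 131 and 119 bp in intermediate cells, and Gsto2 had 180 bp in Hep 2, 124 bp in intermediate 1 and 65 bp in late 1. Of the 13 genes with H3K4me3 in both Hep and no BEC library, Ugt1a5 alone had any H3K27me3, with 113, 0 and 170 bp in late cells and none elsewhere.

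Promoters that kept H3K4me3 and those that lacked it in BEC differed in CpG content. The 8 genes with H3K4me3 in all 11 libraries and an annotated start had 3 to 20 CpG in 300 bases, with a median of 15.5, and the 11 with H3K4me3 in both Hep and no BEC library had 0 to 4, with a median of 2. All protein-coding promoters of the same patterns had medians of 22 (n = 8050) and 4 (n = 287), so the members followed an ordering that all promoters show. The lowest of the 8 was Gstt3 with 3 CpG. Gstp1 and Gsto2 had the most, 20 each, and Sult2b1, with H3K4me3 in both BEC and no Hep library, had 13. The 22 genes without H3K4me3 had a median of 1, with Gstp2 at 12.

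**Figure D4:**
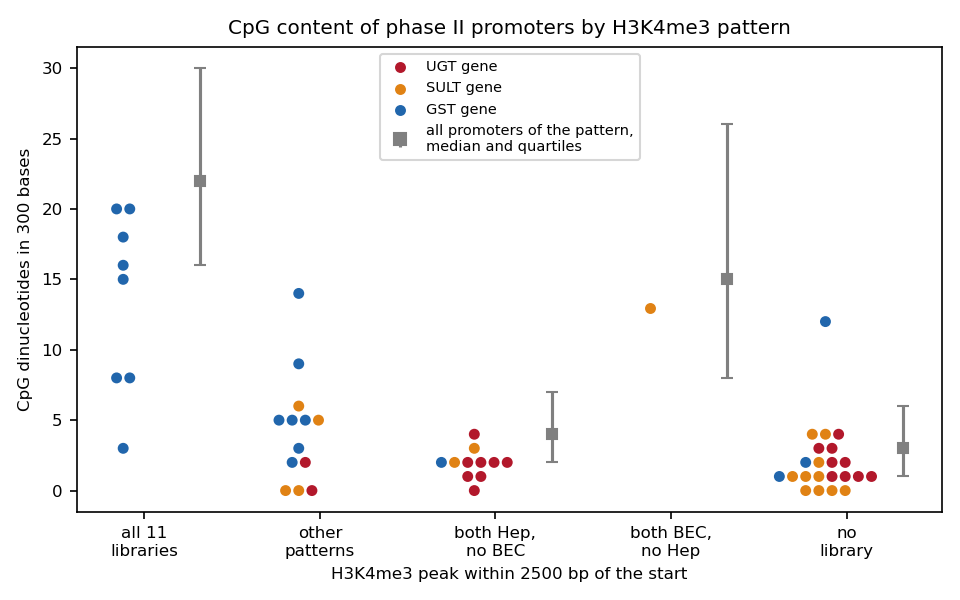
Number of CpG dinucleotides in the 300 bases around the annotated start (y axis) for the 55 phase II genes with such a start, by H3K4me3 pattern (x axis). Coloured points are genes, and grey squares with bars are the median and quartiles of all protein-coding promoters of the pattern (not drawn for other patterns). Points of the first pattern range from 3 to 20 and those of the third from 0 to 4.

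A set of 3 short motifs was searched on both strands of the same 300 bases. The TATA box TATAAA was found in 13 of the 55 promoters (23.6%, against 13.2% of all). GTTAAT, part of the site of the hepatocyte factor HNF1, was found in 14 (25.5%, against 6.25% of all), and in 4 of the 11 promoters with H3K4me3 in both Hep and no BEC library, namely Ugt1a9, Ugt3a1, Ugt2a3 and Sult1d1. Of all promoters of that pattern, 17.1% held it. The share was the same (36.4%) in the 22 members with no H3K4me3 peak in any library, 8 of which held it, against 9.45% of all such promoters. The antioxidant response element TGACNNNGC, bound by NRF2, was found in Gsta3, Gstm5 and Gstm7 (5.45%, against 13.1% of all). The median GC content was 44.3% in the 55 promoters, against 56.7% in all. It was 36% in the 11 promoters, against 49.7% in all promoters of that pattern. Motif shares were not adjusted for base content, and its part in them was not tested. A match says only that the letters are present.

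The genes around these enzymes were read from 6 lists with 55 genes, covering supply of UDP-sugars, sulfate donor and glutathione, other conjugating enzymes, regulators, and export of conjugates. In late versus Hep, H3K4me3 was lower at 6 of 53 tested genes and higher at 1, and H3K27ac was lower at 15 of 51 and higher at 1. These are 11.3% lower and 1.89% higher for H3K4me3, against 3.07% and 3.33% of all tested promoters, and 29.4% lower and 1.96% higher for H3K27ac, against 19.2% and 4.47%. None of the 4 UDP-sugar genes and none of the 8 glutathione genes was called for H3K4me3. Lower H3K4me3 was found at Slc26a1, a sulfate transporter, with 0, 0 and 0 bp in late cells, against 688 and 1009 bp in Hep (adjusted p = 0.00121, limma), and at Slc27a5, which activates bile acids for conjugation, with 0, 0 and 133 bp against 1795 and 1799 bp (adjusted p = 0.000235). Gnmt and Esrra were also lower.

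Among regulators of phase II genes, Nr1i3, which encodes the xenobiotic receptor CAR, had 1504 and 1319 bp of H3K4me3 in Hep, 1286 and 1273 bp in early cells and none in the 7 intermediate, late and BEC libraries (late versus early, adjusted p = 0.000991, limma). Nfe2l2, which encodes NRF2, kept H3K4me3 in every library, with 385, 932 and 1014 bp in late cells, against 1895 and 1882 bp in Hep, and was not called. Hnf4a had 179, 753 and 444 bp in late cells, against 1550 and 1142 bp in Hep (not called), and 199 and 0 bp in BEC (BEC versus Hep, adjusted p = 0.00296). Nqo1, an NRF2 target, kept H3K4me3 in all 11 libraries, but its H3K27ac was 64, 0 and 0 bp in late cells, against 813 and 716 bp in early cells (adjusted p = 0.00890).

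The export pumps differed in direction. Abcc6 fell to 0, 0 and 115 bp of H3K4me3 in late cells, against 910 and 1028 bp in Hep (adjusted p = 0.00108, limma). Abcc1, which exports glutathione and glucuronide conjugates, rose to 419, 835 and 575 bp in late cells, against 0 and 175 bp in Hep (log2 difference 2.06 ± 0.50, SE, adjusted p = 0.0219), and had 933 and 974 bp in BEC. Its H3K27ac was 318, 614 and 627 bp in late cells and 0 and 0 bp in early cells (adjusted p = 0.0116). The other 5 exporters tested were called for H3K4me3 in no comparison.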

How the data were processed

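Data were peak lists of 44 libraries, 11 for each of 4 marks, as deposited by the authors. Per the labels' protocols, cells were fixed lightly with formalin and tagmented with pAG-Tn5. Per the submitters' processing notes, Bowtie2, Picard, deepTools and MACS2 and the build mm10 were used, but the sources used here do not give versions, settings, controls or the peak filter. Each list holds peak starts and ends in bases of mm10 and a score. How the authors defined the deposited score is unknown. It served to rank peaks of the same list, and its lowest value per library lay between 2.00 and 2.09. Of 1341191 peaks, 1210 outside the 19 autosomes, X and Y were dropped. Each library has its own list, and no list pools replicates by its labels.

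Genes and 17491 annotated starts came from RefSeq tables of GRCm38.p6, the assembly of mm10. Of several starts the one with most H3K4me3 over all libraries was used. Genes without an annotated start were placed at the end with more H3K4me3, then H3K27ac, then H3K4me1, otherwise at both ends. Of the 63 genes, 55 had an annotated start, 5 were placed by H3K4me3, 1 by H3K4me1 and 2 at both ends.

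The value was the bp covered by peaks within 2500 bp on each side. For H3K4me3 and H3K27ac, log2(bp + 100) was fitted with limma 3.58.1 (R 4.3.3, lmFit and eBayes) over promoters where 2 or more libraries had a peak, 5 stages in one fit, in 5 comparisons, with Benjamini-Hochberg adjustment over all promoters of a comparison. With few libraries, p-values measure the spread between these libraries, which may be technical. For a single gene no difference is printed where a group had no peak, since it depends on the pseudocount of 100 bp. Medians and plotted values include such genes and depend on it too. The scripts were tested on simulated data. Counts and intervals of reads cannot be given, since the lists hold no read numbers.

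Named genes were those called in any comparison, the gene of each subfamily with most H3K4me3, those with H3K4me3 in all libraries, those with H3K4me3 or H3K27ac in both BEC and no Hep library or the reverse, and those with H3K27me3 in 3 or more libraries. Others named in contrast with these were picked after their values were seen. Members and lists were chosen with earlier results of these data known. Other settings tried were quantile normalization, peaks resized to 500 bp, equal numbers of peaks, a pseudocount of 10 bp, a 1000 bp window, no filter, promoters placed by H3K4me3, a replicate block, and leaving out libraries with peaks shorter than 100 bp (where every stage kept a library) or each library in turn.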

Additional observations from a re-analysis of the deposited data

How the results depend on the processing

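Counts of genes called changed with several settings, and the cause was not tested except where named. For H3K4me3, peaks resized to 500 bp gave 5 in late versus early, 9 in late versus Hep, 1 in BEC versus late and 8 in BEC versus Hep, against 9, 14, 0 and 14. No filter, which tests more promoters, gave 3 in late versus early, 7 in late versus Hep and 9 in BEC versus Hep. An equal number of peaks gave 6 in early versus Hep, against 3, and leaving out short-peak libraries gave 1 in BEC versus late. For H3K27ac, quantile normalization gave 1 in early versus Hep, which was higher, where 7 had been lower, 5 in late versus early (against 3), 11 in late versus Hep (against 17) and 1 in BEC versus late (against 0). Resized peaks gave 8 in late versus Hep, 1 in BEC versus late and 9 in BEC versus Hep (against 15). An equal number of peaks gave 2 in early versus Hep and 10 in late versus Hep, and a pseudocount of 10 bp gave 4 and 10, with 1 in BEC versus late. No filter gave 9 and leaving out short-peak libraries 10 in late versus Hep, and the latter setting gave 1 in BEC versus late. Promoters placed by H3K4me3 gave 12 in early versus Hep. With replicate number as a block, H3K4me3 gave 5 in early versus Hep, and H3K27ac gave 0 in late versus early and 8 in late versus Hep. Whether the replicate numbers pair the samples is not stated. Deviations of same-numbered libraries from their stage means correlated at 0.213 at most, which cannot decide it with 2 or 3 libraries per stage. Leaving out 1 library at a time gave 0 to 4 calls in early versus Hep, 0 to 12 in late versus early, 4 to 15 in late versus Hep, 0 in BEC versus late and 9 to 15 in BEC versus Hep for H3K4me3, and 0 to 8, 0 to 3, 0 to 19, 0 to 1 and 4 to 17 for H3K27ac. In a 1000 bp window, genes with H3K4me3 averaged 30 in Hep, 26.5 in early and 17.3 in late libraries, those with H3K27ac 34 in Hep, 23 in early, 26.5 in intermediate and 18.5 in BEC libraries, and those with H3K27me3 3 in Hep, 1.5 in early and 1 in intermediate libraries. None of the 40 H3K4me3 and 42 H3K27ac differences called changed sign under any of these settings that gave a value. Many of them had no peak in any library of 1 group, where a change of sign was hardly possible. A constant sign therefore says little about their stability. With peaks resized to 500 bp, 17 of the 40 and 19 of the 42 no longer passed the test. Counts over all promoters changed with these settings too. Read depth is unknown, and 2 or 3 libraries per stage limit what can be detected.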
